A study of Mus musculus with 99 samples.

Results

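The cortex of 2-month-old mice lacking progranulin was compared with that of wild-type mice. The comparison rested on 11 of the 99 Illumina MouseRef-8 bead arrays of the series, namely 5 arrays of Grn knockout (KO) cortex and 6 arrays of wild-type (WT) cortex, which were chosen by the labelled region, genotype and age. A further KO cortex array was left out because it carried the Purkinje cell transcript Pcp2 at a cerebellar level. The series measured total RNA of cortex, hippocampus and cerebellum from KO, heterozygous (Het) and WT mice at 2, 6 and 9 months of age, from both sexes, with no treatment. The 5 Het cortex arrays of the same age were fitted together with the KO and WT arrays, so that the 3 genotypes shared 1 estimate of the spread. The sources used here gave neither the strain nor the construction of the Grn allele. Each array came from a separate animal, and cortex was whole tissue, so fewer cells of a type and less RNA per cell cannot be told apart.

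Progranulin, the product of Grn, is a secreted glycoprotein that microglia make abundantly and that neurons also make. It reaches the lysosome partly through the receptor sortilin, encoded by Sort1, and is cut there into granulins that bear on the activity of lysosomal enzymes. In people, loss of the gene product causes frontotemporal dementia, and aged mice without Grn are known for activated microglia, complement and lipofuscin in the brain.

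In KO cortex at 2 months, Grn and 4 other genes fell and 3 genes rose, and all of these genes lie on chromosome 11, the chromosome of Grn. No lysosomal, microglial, complement, astrocyte or neuronal gene outside that chromosome passed the test. The probes called numbered 8 of 12848 tested, or 0.0623%, at an adjusted p under 0.05 (limma with Benjamini-Hochberg adjustment over all tested probes), while 510 probes (3.97%) had an unadjusted p under 0.05. The 3 called probes with a higher level in KO measured Fzd2, Lsm12 and Nle1, and the 5 with a lower level measured Grn, Myl4, Krt12, Stac2 and Rapgefl1. Under median scaling 4 probes were called, those of Grn, Fzd2, Lsm12 and, on chromosome 10, Lyz1. Some other fits called Prox1, Mrps17, Shox2, Slc6a3 or Lyz1, which lie off chromosome 11. Leaving out KO replicate 4 left 4 called probes, and leaving out KO replicate 1, WT replicate 3 or WT replicate 4 left 5 each. Levels below are log2 normalized intensities, and differences are KO minus WT on that log2 scale with the standard error (SE) of the fit.

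Promoter sequences of 5 of the 8 genes were matched in RefSeq (build GRCm38.p6), each covering 250 bases before to 50 bases after the start of the gene. Those of Grn, the targeted gene, and of Krt12 and Rapgefl1 are printed 5′ to 3′ on the strand of the gene. Krt12 and Rapgefl1 had the same highest KO array and the same lowest WT array, as described further on. Capitals mark matches to CACGTG, the core of the element through which lysosomal genes are known to be switched on together, or to TATAAA, the TATA box, searched on both strands with overlaps counted. Of 32851 mouse promoters of the same length, 7.2% held CACGTG and 13.6% held TATAAA.
Grn promoter (chr11:102430257-102430556, plus strand): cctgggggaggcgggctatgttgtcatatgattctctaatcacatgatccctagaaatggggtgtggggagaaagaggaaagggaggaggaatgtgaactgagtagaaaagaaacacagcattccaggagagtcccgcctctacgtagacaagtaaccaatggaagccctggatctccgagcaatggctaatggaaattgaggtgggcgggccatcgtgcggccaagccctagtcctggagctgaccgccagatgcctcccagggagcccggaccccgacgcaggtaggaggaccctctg
Krt12 promoter (chr11:99422210-99422509, minus strand): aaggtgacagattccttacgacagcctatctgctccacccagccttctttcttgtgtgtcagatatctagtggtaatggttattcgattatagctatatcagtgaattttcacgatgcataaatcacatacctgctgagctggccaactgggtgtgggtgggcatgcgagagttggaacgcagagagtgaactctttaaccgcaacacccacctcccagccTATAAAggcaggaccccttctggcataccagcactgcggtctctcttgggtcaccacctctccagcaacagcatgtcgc
Rapgefl1 promoter (chr11:98836535-98836834, plus strand): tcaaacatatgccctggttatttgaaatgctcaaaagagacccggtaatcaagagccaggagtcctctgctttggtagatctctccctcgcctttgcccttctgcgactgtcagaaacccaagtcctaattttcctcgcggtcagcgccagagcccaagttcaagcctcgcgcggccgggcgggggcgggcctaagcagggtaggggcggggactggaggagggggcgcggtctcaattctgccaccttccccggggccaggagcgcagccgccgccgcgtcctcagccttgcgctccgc
Only the Krt12 window held a match among these 3, namely 1 match to TATAAA. The share of G and C bases was 56.3% in the Grn window, 50.3% in the Krt12 window and 62.7% in the Rapgefl1 window.

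The targeted gene separated the genotypes in every array. Grn had levels of 6.93, 7.03, 6.77, 6.84 and 6.77 in KO replicates 1, 3, 4, 5 and 6, and 8.66, 9.08, 8.64, 8.83 and 8.72 in Het replicates 1 to 5. In WT the lowest, median and highest levels were 9.21, 9.30 and 9.57. The 3 genotypes did not overlap, with KO lowest and Het between KO and WT. Grn was lower in KO by a difference of -2.48 ± 0.09 (SE, n = 5 and 6, adjusted p = 2.69e-12), which is a 5.58-fold higher level in WT. The size depended on the scaling, with -1.65 under median scaling and -3.07 with normexp background correction. In Het the difference from WT was -0.58 ± 0.09, at an adjusted p of 0.06. The KO signal was brighter than a median of 12.6% of the probes on an array, against 82.7% in WT and 76.4% in Het, so the KO level lay near the dim end of the array, and detection values were not used here. The left-out KO array had a Grn level of 6.85, inside the KO range.

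**Figure D1:**
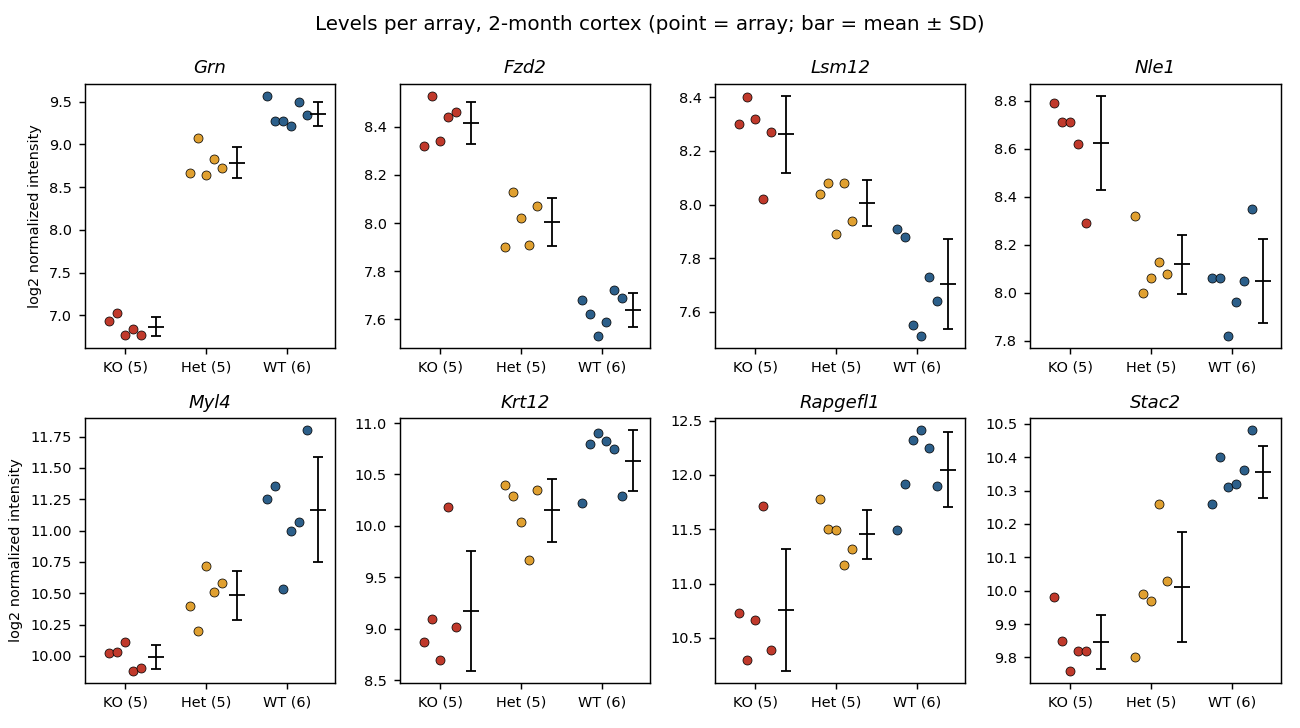
Levels (log2 normalized intensity, each panel with its own axis) of the 8 genes called between KO and WT in 2-month cortex, 1 point per array for 5 KO, 5 Het and 6 WT arrays, with the mean and SD as bars. KO and WT arrays do not overlap for 6 of the genes, while for Nle1 and Rapgefl1 1 KO array reaches into the WT range, and in Krt12 and Rapgefl1 the same KO array, replicate 5, stands closest to WT.

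Fzd2, a Frizzled receptor for Wnt ligands, was the gene with the smallest p among those that rose. Its levels in KO replicates 1, 3, 4, 5 and 6 were 8.32, 8.53, 8.34, 8.44 and 8.46, and in Het replicates 1 to 5 they were 7.90, 8.13, 8.02, 7.91 and 8.07. The WT levels had a lowest, median and highest value of 7.53, 7.65 and 7.72. No KO array reached down to the highest Het or WT array, and no Het array reached down to WT. Fzd2 was higher in KO by 0.78 ± 0.07 (adjusted p = 6.85e-06), a 1.72-fold difference, and the Het difference from WT was 0.36 ± 0.07 (adjusted p = 0.135). Among the 16 tested genes of the Wnt signalling list, Fzd2 alone was called, 8 members had a positive and 8 a negative difference, and the median was 0.03, against 0.0042 over all 9096 tested genes. Tcf7l2, a transcription factor at the end of that pathway that thalamic neurons also express, had a difference of 0.76 ± 0.23 at an adjusted p of 0.889.

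Lsm12, which encodes an LSM-domain protein, had levels of 8.30, 8.40, 8.32, 8.02 and 8.27 in KO replicates 1, 3, 4, 5 and 6. The WT levels ran from 7.51 through a median of 7.68 to 7.91, and the Het levels from 7.89 to 8.08. KO and WT did not overlap, and the lowest KO array, replicate 5, lay within the Het range. The gene was higher in KO by 0.56 ± 0.09 (adjusted p = 0.0138), while the other 2 tested probes of Lsm12 had differences of 0.03 ± 0.09 and 0.08 ± 0.11 (adjusted p = 1 for both). The call for Lsm12 therefore rested on 1 of its 3 tested probes.

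Nle1, the Notchless homolog that takes part in assembly of the large ribosomal subunit, had levels of 8.79, 8.71, 8.71, 8.62 and 8.29 in KO replicates 1, 3, 4, 5 and 6. The WT levels ran from 7.82 through a median of 8.06 to 8.35. KO replicate 6 fell below the highest WT array, and the other 4 KO arrays lay above all WT arrays. Nle1 was higher in KO by 0.58 ± 0.10 (adjusted p = 0.0309), and its Het difference from WT was 0.06 ± 0.10. The call was kept in 2 of 11 fits that left out a KO or WT array in turn, so of the 8 genes it depended most on single arrays.

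Myl4, an essential light chain of myosin best known from atrial and embryonic muscle, fell in KO. Its levels were 10.02, 10.03, 10.11, 9.88 and 9.90 in KO replicates 1, 3, 4, 5 and 6, and 10.40, 10.20, 10.72, 10.51 and 10.58 in Het replicates 1 to 5. The lowest, median and highest WT levels were 10.53, 11.16 and 11.80. KO arrays lay closely together below all Het and WT arrays, whereas the WT arrays were spread out (SD 0.42 against 0.10 in KO). The difference was -1.19 ± 0.16 (adjusted p = 0.00192), a 2.28-fold higher level in WT, and the Het difference was -0.68 ± 0.16 (adjusted p = 0.259). Myl4 was also the 1 called gene among 12 tested cortex markers, whose median difference was -0.05.

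Krt12, a keratin of the corneal epithelium, and Rapgefl1, a relative of Rap guanine nucleotide exchange factors, lie near each other on chromosome 11 and fell together. Krt12 levels were 8.87, 9.10, 8.70, 10.18 and 9.02 in KO replicates 1, 3, 4, 5 and 6, with 10.22, 10.78 and 10.90 as the lowest, median and highest WT levels. Rapgefl1 levels in the same KO replicates were 10.73, 10.30, 10.66, 11.71 and 10.39, with 11.49, 12.08 and 12.41 as the lowest, median and highest WT levels. In both genes KO replicate 5 was the highest KO array, and WT replicate 1, at 10.22 and 11.49, was the lowest WT array. Those KO values lay within the Het ranges, which were 9.67 to 10.40 for Krt12 and 11.17 to 11.78 for Rapgefl1. Krt12 was lower in KO by a difference of -1.43 ± 0.20 (adjusted p = 0.00385) and Rapgefl1 by -1.28 ± 0.21 (adjusted p = 0.0142), or 2.70-fold and 2.43-fold higher levels in WT. A second tested probe of Rapgefl1 had a difference of -0.14 ± 0.13 (adjusted p = 1). With each KO or WT array left out in turn, Krt12 kept its call in 11 of 11 fits and Rapgefl1 in 4 of 11. Without KO replicate 5 the adjusted p was 2.92e-05 for Krt12 and 4.61e-05 for Rapgefl1, whereas in the 7 fits that lost Rapgefl1, those without KO replicate 1, 3, 4 or 6 or WT replicate 3, 4 or 5, it ran from 0.0521 to 0.0651.

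Stac2, an adaptor protein of voltage-gated calcium channels, was lower in KO by a difference of -0.52 ± 0.08 (adjusted p = 0.0134). Its levels were 9.98, 9.85, 9.76, 9.82 and 9.82 in KO replicates 1, 3, 4, 5 and 6 and ran from 10.26 through 10.34 to 10.48 in WT. The groups did not overlap, and the SD was 0.08 in each. KO replicate 5, which stood apart in Krt12 and Rapgefl1, lay among the other KO arrays in Stac2, Myl4 and Fzd2.

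The animal of KO replicate 5 also gave a cerebellum array at 2 months. There its Lsm12 level was 7.91, below the 8.18 to 8.36 of the other 4 KO cerebellum arrays and just above the highest WT cerebellum array at 7.89. Its Rapgefl1 level in cerebellum was 10.83, against 9.51 to 10.85 in the other KO arrays, and its Krt12 level was 7.47, against 6.75 to 7.87. Lsm12 in that animal was thus below the other KO arrays in both regions. Krt12 and Rapgefl1 stood apart from them in cortex and lay inside their range in cerebellum. That Rapgefl1 level also lay inside the WT cerebellum range of 10.74 to 11.12. Krt12 was dim in cerebellum, with a KO mean of 7.26, so it says little there. The cerebellum ranges include cerebellum KO replicate 1 and cerebellum WT replicate 4, whose region is doubtful. Replicates are numbered separately in each region, so these are not the animals of cortex KO replicate 1 and WT replicate 4. Cerebellum KO replicate 1 came from the animal of the left-out cortex array.

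The called probes were set against the order of genes on chromosome 11. Of 1068 tested probes on this chromosome, 8 were called and 58 (5.43%) had an unadjusted p under 0.05, while of 11031 tested probes on other chromosomes 0 were called and 418 (3.79%) had an unadjusted p under 0.05 in the same limma fit. A further 749 tested probes had no chromosome in the annotation used, and none was called. Fzd2 lay 2 tested genes after Grn, Lsm12 lay 6 tested genes before it, Myl4 26 after it, and Krt12, Rapgefl1 and Stac2 lay 50, 56 and 72 genes before it. Nle1 was the farthest of the called genes, 171 tested genes before Grn. Among the 100 tested genes nearest to Grn, each taken by its probe of smallest p, 4 besides Grn were called and 15 had an unadjusted p under 0.05, against 3 and 41 of the other 681. Rises and falls occurred side by side, since 2 of the 4 nearest called genes were higher and 2 lower in KO, and the median difference of these 100 genes was -0.0193.

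**Figure D2:**
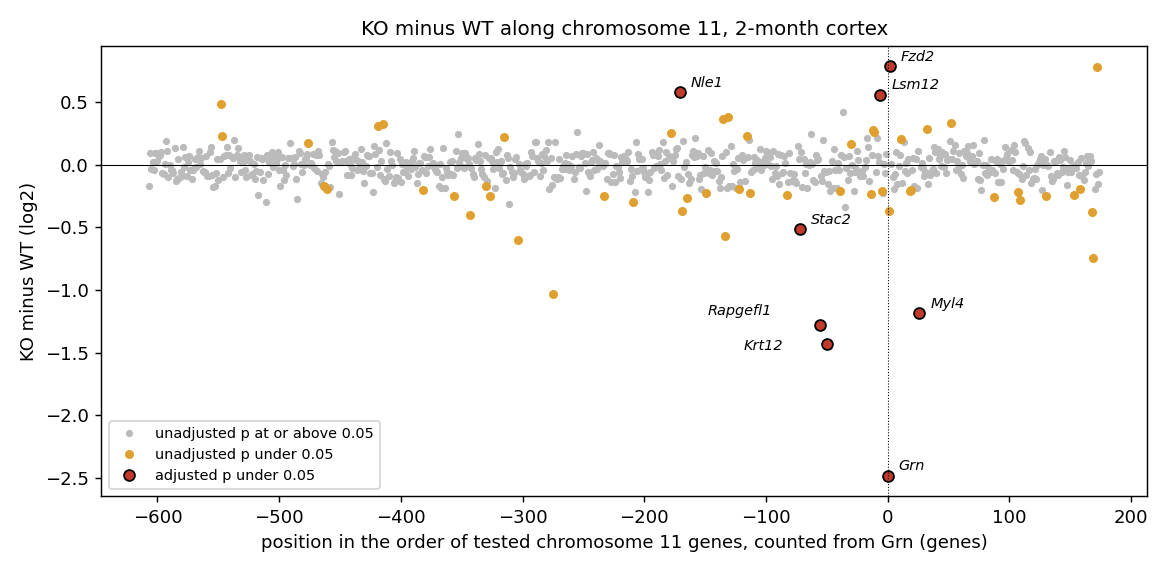
KO minus WT (log2, vertical axis) of each of 782 tested chromosome 11 genes against its position in gene order counted from Grn (horizontal axis, 607 genes before and 174 after), each gene by its probe of smallest p. The called genes (red) include Grn at -2.48, with Fzd2, Lsm12, Myl4, Krt12, Rapgefl1 and Stac2 within 72 genes of it, while the genes toward the far start of the chromosome hold no called gene.

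Further chromosome 11 genes were among the 15 genes of smallest p in each direction without being called. Fam171a2, the tested gene next to Grn, had KO levels from 9.51 to 9.81 and WT levels from 9.86 to 10.15, with no overlap and a difference of -0.37 ± 0.09 at an adjusted p of 0.343. Hexdc, which encodes hexosaminidase D, had a difference of -0.37 ± 0.09, and Cybc1, a chaperone of the phagocyte NADPH oxidase, one of -0.74 ± 0.18. These 2 genes are neighbours, 168 and 169 tested genes after Grn. Coil, which encodes the Cajal body protein coilin and lies 131 tested genes before Grn, had a difference of 0.38 ± 0.09 by one probe and -0.11 ± 0.09 by the other. The RIKEN gene 4933427D14Rik had a difference of -1.03 ± 0.28 (adjusted p = 0.56). In all, 4 of the 15 genes named as higher and 9 of the 15 named as lower lie on chromosome 11.

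Over all tested probes, the arrays of KO lay wholly above those of WT in 30 probes (0.233%) and wholly below in 35 (0.272%). On chromosome 11 these numbers were 6 and 10 of 1068 probes, together 1.5%, or 1.41% without Grn. On the other chromosomes they were 23 and 24 of 11031 probes, together 0.426%. Outside chromosome 11, the genes of smallest p that were higher in KO without being called were Prox1, Mrps17, Lyz1, Shox2 and Prkcd. Prox1, a homeobox factor of dentate granule cells, had KO levels from 8.13 to 8.43 and WT levels from 7.80 to 7.97, a difference of 0.36 ± 0.07 (adjusted p = 0.108). A second probe of Prox1 had a difference of 0.13 ± 0.08. Mrps17, a protein of the mitochondrial ribosome, had a difference of 0.54 ± 0.11 (adjusted p = 0.114) with KO levels from 11.18 to 11.43 and WT levels from 10.56 to 11.14. Shox2, a homeobox factor of thalamic neurons, had a difference of 0.71 ± 0.15 (adjusted p = 0.16).

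Other genes of this rank had larger p. Cd83, a membrane protein of immune cells, had a difference of 0.41 ± 0.10 and the growth factor Fgf1 one of 0.42 ± 0.11. Sncg, or gamma-synuclein, had a difference of 0.44 ± 0.11, while its Het difference from WT was 0.62 ± 0.11 (adjusted p = 0.114). Slc6a3, the dopamine transporter, had the widest KO range, from 7.05 to 9.75, against 7.05 to 7.52 in WT. Ttc39a had a difference of 0.33 ± 0.08. Among genes lower in KO, Myg1, a mitochondrial and nuclear exonuclease, had KO levels from 8.05 to 8.21 and WT levels from 8.33 to 8.56 with no overlap, a difference of -0.32 ± 0.07 (adjusted p = 0.254). Dennd2a, an activator of Rab GTPases, had a difference of -1.11 ± 0.28, the netrin Ntn5 one of -0.39 ± 0.10, Arv1, a protein of sterol transport, one of -0.43 ± 0.11, and Tnnc1, a troponin C, one of -0.52 ± 0.14. Erdr1, which has near-identical copies so that its probe is uncertain, had a difference of -0.87 ± 0.20. The adjusted p of these uncalled genes lay between 0.108 and 0.56.

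Genes of activated microglia leaned higher in KO without a call. Of 24 members with a probe 18 were tested, 0 were called and 7 had an unadjusted p under 0.05, all higher in KO, while over all tested genes that share was 2.19% for higher and 1.56% for lower. A positive difference was found in 16 of the 18, and their median was 0.15. Under median scaling all 18 differences were positive, but the median of all tested genes was also higher, at 0.15, and the list median less that value was 0.036. Lyz1, a lysozyme, had levels of 9.57, 9.85, 10.05, 9.84 and 10.15 in KO replicates 1, 3, 4, 5 and 6 and of 8.85, 9.01 and 9.69 as the lowest, median and highest in WT. Only WT replicate 1 reached into the KO range. The difference of Lyz1 was 0.79 ± 0.16 (adjusted p = 0.117), and the near-identical Lyz2, which the probes may not keep apart from Lyz1, had 0.69 ± 0.20 (adjusted p = 0.753) with KO levels from 8.26 to 8.96 and WT levels from 7.66 to 8.13. Without WT replicate 1, Lyz1 was called at 0.89 (adjusted p = 0.0137). Trem2, a microglial lipid receptor, had a difference of 0.32 ± 0.10 with WT replicate 1 at 8.45 inside the KO range of 8.16 to 8.68, and Tlr2, a receptor of bacterial lipoproteins, one of 0.26 ± 0.08 with no overlap.

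The list of homeostatic microglia genes had 14 tested members with 0 called, 5 positive and 9 negative differences and a median of -0.04, and Aif1, a marker of all microglia, had 0.15 ± 0.10. Of 8 tested complement genes 0 were called. C1qa and C1qc, subunits of the first complement component, had differences of 0.16 ± 0.08 and 0.22 ± 0.11, and C2, a component of the classical pathway, one of 0.30 ± 0.11. Cd59a, which protects cells from lysis by complement, had a difference of -0.58 ± 0.16 (adjusted p = 0.56) with KO levels from 9.46 to 10.27, all below the WT levels of 10.47 to 10.70. The interferon and antigen presentation list had 11 tested members, with Usp18, an interferon-induced protease, at -0.30 ± 0.09 and Cd74, the invariant chain, at 0.25 ± 0.11, neither called.

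No gene of the lysosome, the compartment where progranulin acts, was called. Of 38 tested members 3 had an unadjusted p under 0.05, all higher in KO, against 2.19% of all tested genes, and the median difference of the list was 0.01. These were the proteases Ctsz and Ctss at 0.24 ± 0.10 and 0.27 ± 0.12 and the mannosidase Man2b1 at 0.22 ± 0.09 (adjusted p = 1 for each). Ctsz and Ctss are also on the activated microglia list, among its 7 members with an unadjusted p under 0.05. Of the progranulin partners, 13 tested genes with Grn included, Grn alone was called. The brightest probe of the receptor gene Sort1 had a difference of -0.03 ± 0.06 with KO levels from 13.45 to 13.60 and WT levels from 13.44 to 13.61, and its probe of smallest p had -0.14 ± 0.11.

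Glial and neuronal lists other than these had no called gene. Astrocyte genes had a median of 0.03 over 15 tested members and reactive astrocyte genes one of 0.05 over 10, with Gfap, the astrocyte intermediate filament, at 0.10 ± 0.09 and the complement gene C4b at 0.15 ± 0.10. Oligodendrocyte and myelin genes had a median of 0.04 over 11. Neuronal genes had a median of -0.04 over 16, and 3 of them had an unadjusted p under 0.05, all lower in KO, against 1.56% of all tested genes. These were Dnm1, or dynamin of synaptic vesicles, at -0.37 ± 0.13, the nuclear marker Rbfox3 at -0.25 ± 0.10 and the ubiquitin hydrolase gene Uchl1 at -0.23 ± 0.11. The glutamatergic synapse list had a median of -0.02 over 9 tested members, with 4 positive and 5 negative differences. In it Dlg4, the postsynaptic scaffold PSD-95, had -0.60 ± 0.23 and Slc17a6 had 0.51 ± 0.17. Dlg4 and Rbfox3 lie on chromosome 11. All 13 tested immediate early genes had negative differences with a median of -0.10 and none at an unadjusted p under 0.05, Arc at -0.23 ± 0.27 among them, and under median scaling, where the median of all tested genes moved to 0.15, Arc and Egr1 were not negative.

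**Figure D3:**
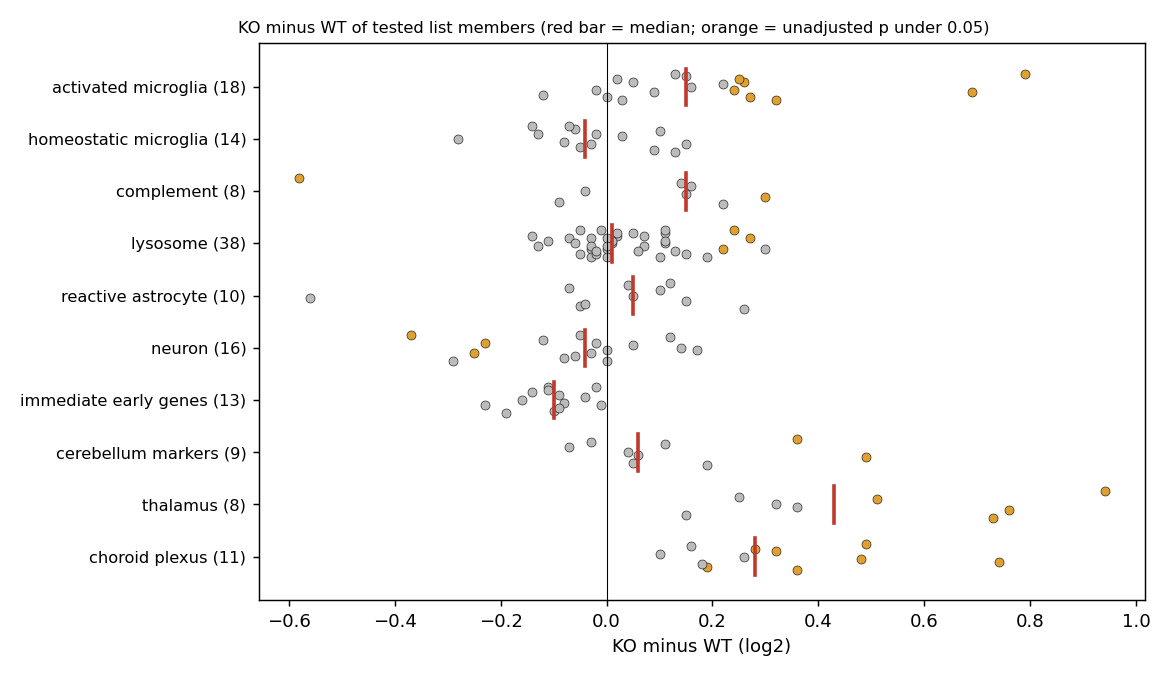
KO minus WT (log2, horizontal axis) of the tested members of 10 gene lists in 2-month cortex, 1 point per gene, with the number tested beside each name, the list median as a red bar and members with an unadjusted p under 0.05 in orange. Thalamus and choroid plexus members all lie above 0, and activated microglia members lie above 0 in 16 of 18, while lysosomal members centre on 0.01.

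Markers of thalamus and choroid plexus had positive differences throughout, with none called. All 8 tested thalamus markers had positive differences with a median of 0.43, and 4 had an unadjusted p under 0.05, against 2.19% of all genes higher in KO. These were Prkcd, or protein kinase C delta, at 0.94 ± 0.20 (adjusted p = 0.186), Tcf7l2 at 0.76 ± 0.23, the homeobox gene Gbx2 at 0.73 ± 0.26 and the vesicular glutamate transporter Slc17a6 at 0.51 ± 0.17. Prkcd levels were 9.68, 8.61, 9.30, 9.40 and 9.14 in KO replicates 1, 3, 4, 5 and 6, all above the WT range of 7.99 to 8.53. The mean level of the thalamus list ran from 9.04 to 9.81 in KO and from 8.74 to 9.41 in WT, and its median Het difference from WT was 0.62. All 11 tested choroid plexus markers also had positive differences, with a median of 0.28 and 7 at an unadjusted p under 0.05. Among them were the transthyretin gene Ttr at 0.74 ± 0.27, with KO levels from 11.95 to 13.26 and WT levels from 10.43 to 12.53, the klotho gene Kl at 0.49 ± 0.12, the water channel Aqp1 at 0.32 ± 0.12 and the homeobox gene Otx2 at 0.36 ± 0.15. The mean level of this list ran from 8.46 to 8.96 in KO and from 7.91 to 8.56 in WT, with a median Het difference of 0.36. The 8 tested hippocampus markers had a median of 0, with 4 positive and 4 negative, and the 11 tested markers of meninges and fibroblasts one of -0.04, with 4 positive and 7 negative. The 12 tested markers of striatum and hypothalamus had a median of 0.16 in KO, with 11 positive and 1 negative, and of -0.18 in Het. The part of thalamus and choroid plexus markers in the differences of Shox2, Tcf7l2, Kl and the other genes off chromosome 11 was not tested.

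Of the 12 tested cortex markers, Myl4 was called, 5 had a positive and 7 a negative difference, and the median was -0.05. The mean level of the list ran from 9.70 to 9.91 in KO and from 9.90 to 10.13 in WT. That mean includes Myl4, at a difference of -1.19, and was not taken without it. The 3 markers used to check the region overlapped between the genotypes. Tbr1, a factor of deep-layer neurons, ran from 9.47 to 10.36 in KO and from 9.91 to 10.67 in WT, Rorb of layer 4 neurons from 8.20 to 8.57 and 8.23 to 8.47, and the glutamate transporter Slc17a7 from 11.79 to 12.51 and 12.09 to 12.30. Pcp2 ran from 6.84 to 9.07 in KO and from 6.75 to 8.24 in WT, against 11.52 in the left-out KO array and 11.70 in Het replicate 4, which stood apart in the same way and is among the Het values given here. Without that Het array, no call between KO and WT was lost. Cerebellum markers had a median of 0.06 over 9 tested members, with Zic1 and Zic4, which thalamus also expresses, at 0.49 ± 0.20 and 0.36 ± 0.14. Median array intensities ran from 90.5 to 113.7 in KO and from 87.9 to 98.2 in WT.

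The 16 arrays of the fit lay on 6 slides, and 4 slides held both KO and WT cortex, with 5 KO and 4 WT arrays on them. All 8 called genes differed in the same direction within each of the 4 slides. The calls came from these same arrays. Of the genes named by smallest p without a call, all but Slc6a3, Erdr1 and 4933427D14Rik also kept their direction within each slide. The Fzd2 difference ran from 0.72 to 0.93 within slides and that of Grn from -2.64 to -2.24. Krt12 ran from -2.05 to -0.57 and Rapgefl1 from -1.92 to -0.54, and the smallest value of both came from the same slide. Lyz1 had differences from 0.59 to 1.15 within slides and Prkcd from 0.08 to 1.41. Deviations from the group means correlated at a median of 0.43 between KO and WT arrays of the same slide and of -0.11 between those of different slides. With slide as a fixed block 7 probes were called, all of them among the 8, and Stac2 was not (adjusted p = 0.0777), nor were Lyz1 and Prox1. With slide as a random block 10 probes were called, now with Lyz1 (0.82, adjusted p = 0.0234) and Prox1 (0.36, adjusted p = 0.0346) among them.

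The same genes were followed in cortex at later ages, which came from other animals on other slides. The fitted Fzd2 difference was 0.53 ± 0.11 at 6 months and 0.37 ± 0.10 at 9 months, and that of Krt12 was -1.52 ± 0.32 and -1.70 ± 0.31. Lsm12 had 0.50 ± 0.13 and 0.78 ± 0.12, Rapgefl1 -1.07 ± 0.29 and -1.31 ± 0.28, Stac2 -0.40 ± 0.13 and -0.46 ± 0.13, Myl4 -0.81 ± 0.24 and -0.65 ± 0.23, and Nle1 0.23 ± 0.15 and 0.37 ± 0.14. All 8 genes kept their direction at both ages. KO and WT arrays (3 and 3) did not overlap in 7 of the 8 genes at 6 months and in 7 at 9 months, where the groups of 8.80% and 5.35% of all probes did not overlap. These overlap counts, unlike the fitted differences, were not adjusted for sex. WT cortex arrays were all from females at 6 months and all from males at 9 months, while KO arrays came from both sexes. At 9 months, 7 probes (0.0545%) were called, with Grn, Krt12, Lsm12, Lyz1, C4b and Fam171a2 among them. At 6 months 1 probe (0.00778%) was called, that of Grn. Of the 22 named genes that were not called at 2 months, 14 had the same direction at 6 months and 14 at 9 months.

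The test of the difference itself, KO minus WT at 2 months less the mean of the same at 6 and 9 months, called 0 of 12848 probes (0%), with 480 at an unadjusted p under 0.05. For Fzd2 this difference was 0.34 ± 0.11 (adjusted p = 0.997, 95% confidence interval 0.12 to 0.55), and for Grn it was -0.17 ± 0.17. C4b, a complement gene that reactive astrocytes express, had 0.15 ± 0.10 at 2 months against 0.80 ± 0.16 at 6 and 0.80 ± 0.16 at 9 months. In the limma fit it was called at 9 months (adjusted p = 0.0379). The age difference of C4b was -0.65 ± 0.16 (unadjusted p = 0.00036, adjusted p = 0.997). Lyz1 had 0.79 ± 0.16 at 2 months, 1.20 ± 0.26 at 6 and 1.34 ± 0.25 at 9 months, where it was called (adjusted p = 0.0273). Lyz2 had 0.73 ± 0.28 at 6 and 1.13 ± 0.27 at 9 months, and Trem2 0.39 ± 0.16 and 0.51 ± 0.15. Prkcd had -0.26 ± 0.47 and -0.12 ± 0.45, and Prox1 0.12 ± 0.10 and -0.04 ± 0.09.

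**Figure D4:**
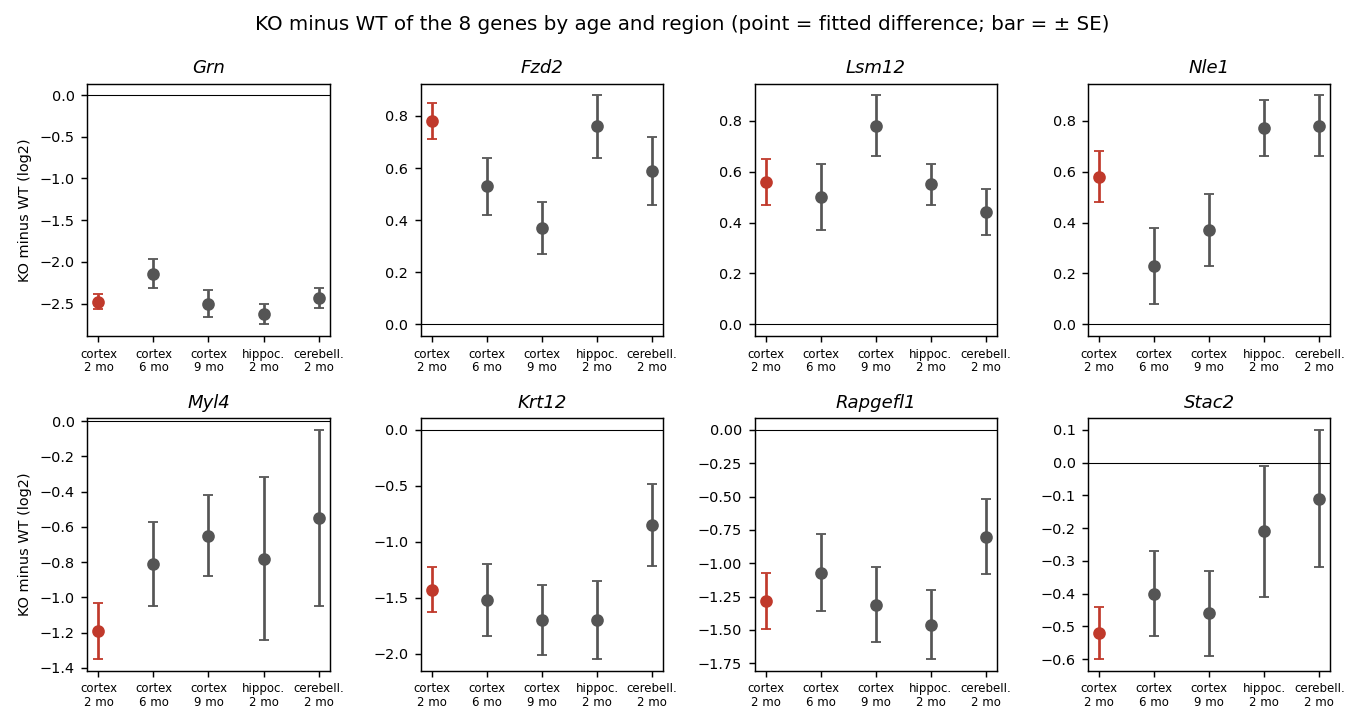
KO minus WT (log2, fitted difference ± SE, each panel with its own axis) of the 8 called genes in cortex at 2 months (red) and in cortex at 6 and 9 months, hippocampus at 2 months and cerebellum at 2 months (grey). Every point lies on the same side of 0 as in 2-month cortex, and the bar of Stac2 in cerebellum crosses 0.

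**Figure D5:**
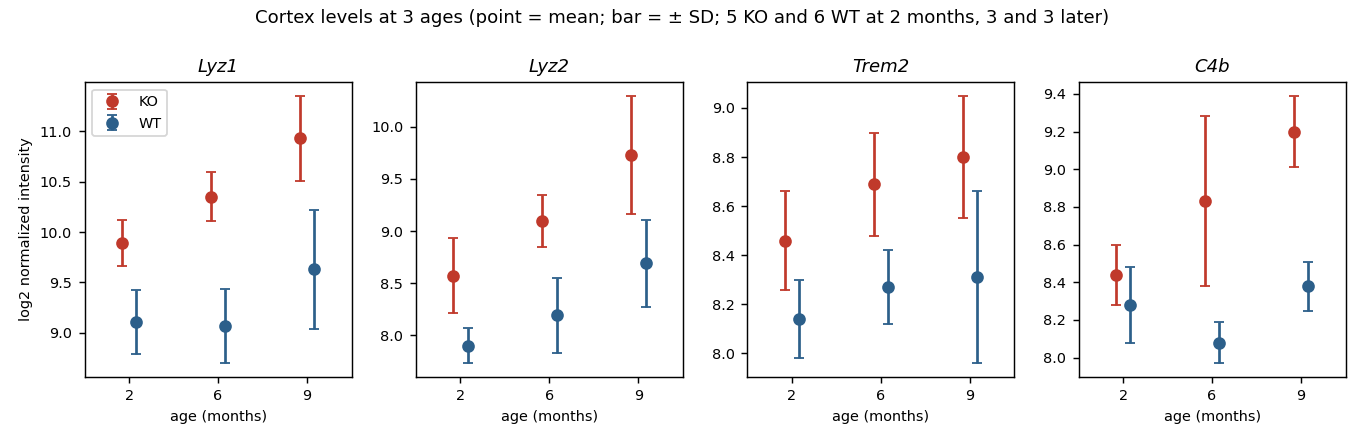
Mean level (log2 normalized intensity ± SD, each panel with its own axis) of Lyz1, Lyz2, Trem2 and C4b in KO (red) and WT (blue) cortex at 2, 6 and 9 months, with 5 KO and 6 WT arrays at 2 months and 3 of each later. The C4b means lie 0.16 apart at 2 months, and 0.76 and 0.82 apart at 6 and 9 months, while Lyz1 means are apart at each age. The means are not adjusted for sex, and WT arrays were all from females at 6 months and all from males at 9 months.

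In other regions of 2-month mice, most of them the same animals, the 8 genes again kept their direction. In hippocampus 7 probes (0.0545%) were called, and the differences were 0.76 ± 0.12 for Fzd2, 0.77 ± 0.11 for Nle1, 0.55 ± 0.08 for Lsm12, -1.70 ± 0.35 for Krt12 and -1.46 ± 0.26 for Rapgefl1, each past the threshold. Myl4 and Stac2, at -0.78 ± 0.46 and -0.21 ± 0.20, were not called there. KO and WT hippocampus did not overlap in 6 of the 8 genes, against 0.241% of all probes. In cerebellum 2 probes (0.0156%) were called, those of Grn and Nle1, and the groups did not overlap in 4 of the 8 genes, against 1.20% of all probes. Testing the cortex difference against that of hippocampus called 0 probes (0%), with 103 at an unadjusted p under 0.05, and against that of cerebellum 0 probes (0%), with 115. The cortex difference less that of cerebellum was -0.40 ± 0.28 for Stac2 and -0.63 ± 0.66 for Myl4, with 95% confidence intervals from -0.97 to 0.17 and from -1.96 to 0.70. Some cerebellum arrays carried Tbr1 up to 9.84, a cortex-like level, and without the 2-month arrays of doubtful region these values were -0.32 ± 0.27 and -0.90 ± 0.59, with 0 probes called.

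Het cortex was set beside KO cortex, both against the same WT arrays. No probe (0%) was called between Het and WT, and 769 (5.99%) had an unadjusted p under 0.05, and without Het replicate 4, which carried cerebellar markers, 0 were called. For the genes of chromosome 11, Het differences from WT were 0.36 ± 0.07 for Fzd2, 0.31 ± 0.09 for Lsm12, -0.68 ± 0.16 for Myl4, -0.51 ± 0.20 for Krt12, -0.60 ± 0.21 for Rapgefl1 and -0.33 ± 0.08 for Stac2, each between 0 and the KO value. Nle1 had a Het difference of 0.06 ± 0.10 beside 0.58 in KO, with a highest Het level of 8.32 and a highest WT level of 8.35. Lyz1 had a Het difference of 0.28 ± 0.16 beside 0.79 in KO, Prox1 had 0.41 ± 0.07 beside 0.36, and Kl had 0.60 ± 0.12 beside 0.49.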

How the data were processed

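Total RNA was hybridised to Illumina MouseRef-8 arrays. The deposited table held 1 linear intensity per probe and array, not normalized by the authors. The submitters' processing notes name BeadStudio and give no version. A deposited series matrix held log2 values that equalled the quantile-normalized log2 intensities without background correction (largest difference 4.97e-14).

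Intensities of all 99 arrays (25697 probes) were taken to log2 and quantile-normalized without background correction. Probes with a mean above the median of the probe means over the 16 fitted arrays (7.28) were tested. Genotypes were compared with limma 3.58.1 in R 4.3.3 (lmFit, eBayes with trend, sex as covariate), two-sided, with Benjamini-Hochberg adjustment over all 12848 probes and a threshold of 0.05. The age fit used all cortex arrays but the left-out one. The region fits used all 2-month arrays with the animal as a random block (statmod 1.5.0). Precision is limited by the number of arrays. The script was tested on simulated data. Symbols came from the platform annotation, updated by gene identifier (23962 of 23978 matched). Gene order came from GRCm38.p6, since the build of the files was not named.

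The members, lists and tests were chosen with earlier results of these data known. Genes named were Grn, the 15 of smallest p each way, and up to 4 members by smallest p of each list described, from 27 lists tabulated. Region markers were named beside them. The alternatives were background correction, scaling, filter, slide, sex, replicate block, array weights, the arrays in the fit and each array left out. Leaving out the arrays of doubtful region was chosen after seeing the data. List values used the brightest probe of a gene.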

Additional observations from a re-analysis of the deposited data

Results flagged for a closer look

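Of 204 sets of values (68 genes in KO, Het and WT cortex), 14 held an array whose gap to its nearest neighbour was large against the range of its group, past Dixon's critical value for its size, where chance gives about 1 in 20 sets. Krt12 in KO replicate 5 was high, at 10.18 against 9.10 in the next KO array, and it was the only called gene among the 14. The same array was low in Erdr1, at 8.03 against 9.04. KO replicate 1 was low in Mrps17 at 11.18, and KO replicate 4 was high in the pericyte gene Rgs5 at 9.32 and low in Dlg4 at 8.33. Dlg4 was also low in Het replicate 3, at 8.35, and high in WT replicate 5, at 10.30. In WT, replicate 1 was high in Trem2 at 8.45, replicate 3 in Dnm1 at 8.70 and replicate 4 in Zic1 at 9.19. In Het, replicate 2 was low in Coil at 7.39 and high in Slc6a3 at 8.51, and replicate 1 was low in 4933427D14Rik at 8.69 and high in Egr1 at 13.19. The left-out KO array, which entered no comparison, carried Pcp2 at 11.52, above the highest WT cortex array at 8.24. The causes were not tested.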

How the results depend on the processing

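The KO against WT count of 8 called probes was within 1.5 times under 17 of 26 alternatives, and no age or region difference was called under any alternative run. It was 4 under median scaling (3 of them on chromosome 11), 5 with quantile normalization over KO and WT arrays alone, 4 with the stricter filter, 5 with only the KO and WT arrays in the fit and 4 to 9 with an array left out, with 4 to 8 on chromosome 11. The stricter filter tested fewer probes and dropped Grn, Fzd2, Lsm12 and Nle1. The count was highest, at 11, with all cortex arrays in the fit. That limma fit also called Prox1 (adjusted p = 0.0114), Mrps17 (adjusted p = 0.00995) and a probe without a symbol. Array weights added Prox1 and Shox2. Off chromosome 11, Shox2 and Lyz1 were called without WT replicate 1, Slc6a3 without KO replicate 3 and Mrps17 without WT replicate 5. With a replicate block 2 probes were called, those of Grn and Fzd2. The replicate numbers follow the order of the animal numbers within each group, so equal numbers do not mark a pair. The replicate block therefore joined KO and WT animals by that order alone. Same-numbered KO and WT arrays had deviations that correlated from -0.12 to 0.45, and 2 of 5 KO arrays correlated best with their own number. Grn and Fzd2 stayed called in all 25 alternatives that tested them, Myl4 and Krt12 in 24 of 26, Stac2 in 22 of 26, Lsm12 in 17 of 25, Rapgefl1 in 15 of 26 and Nle1 in 12 of 25. Het against WT gave 2 calls with slide as a fixed block, 1 with the left-out KO array put back and 0 to 4 with an array left out, the 4 without WT replicate 3.

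Median scaling moved the median of all tested genes to 0.15, and Sort1 (0.07), Cck (0.03), Arc (0.00) and Egr1 (0.09) changed sign under it. List medians are given less that of all tested genes. Under median scaling that of activated microglia moved from 0.151 to 0.036, of interferon response genes to -0.11 and of oligodendrocyte genes to 0.124. Under the stricter filter, where few members were left, these were 0.069 for activated microglia, -0.177 for interferon response, -0.562 for reactive astrocyte and -0.032 for Wnt signalling genes, and with the left-out KO array put back that of cerebellum markers was 0.439. With an array left out, they ran from -0.019 to 0.041 for astrocyte genes, from -0.036 to 0.036 for progranulin partners and from -0.01 to 0.063 for inflammatory genes. Other causes were not tested. Signal near the dim end of the array limits the Grn fold in KO.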
